A study of Mus musculus with 12 samples.

Results

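Interleukins are secreted signalling proteins that pass between immune, stromal and bone cells, and each acts through a receptor that is usually built from a binding chain and a signalling chain shared with other interleukins. Receptors of the common gamma chain, gp130 and IL-10 families signal through JAK kinases and STAT transcription factors, while receptors of the IL-1 and IL-17 families signal through adaptor proteins to NF-κB. Several members of the IL-1 family act against the rest: a decoy receptor that binds the ligand without signalling, a receptor antagonist and a soluble binding protein. In bone, interleukins and the cytokine IL-34 are known for their effects on osteoclasts, the cells that resorb bone, and on the blood-forming cells that remain in and around the shaft.

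The genes described here are the interleukins, interleukin receptors and related antagonists whose symbol in the deposited normalized table begins with Il and a digit. The rule found 53 of the 17408 genes in that table: 15 ligands, 32 receptor chains, 5 antagonists or decoys and 1 antisense transcript, Il1bos. They were measured by bulk RNA-seq of the femoral shaft of male mice, 12 weeks old, after the marrow had been spun out. The 4 groups held 3 libraries each, and each library was a pool of RNA from 2 mice: catalase knockout (Cat -/-) mice given binge ethanol (libraries 4, 5 and 6), Cat -/- mice given phosphate-buffered saline (PBS; libraries 1, 2 and 3), wild-type (Cat +/+) mice given ethanol (libraries 10, 11 and 12) and Cat +/+ mice given PBS (libraries 7, 8 and 9). Ethanol was gavaged daily for 4 days at 3, 3, 4 and 4.5 g per kg of body weight from a 31.5% (v/v) solution, PBS was given in equal volume, and tissue was taken 6 hours after the last dose. Catalase breaks down hydrogen peroxide, and the labels name no cell-type restriction of its loss. Because every library is a pool, the p-values measure the spread between pools of mice.

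The libraries held 19950222 to 28789308 counts each, and the 53 genes together took 0.129% to 0.180% of them. The targeted gene, Cat, was at 71.6 ± 2.58 CPM (the count scaled to library size) in KO ethanol and 160 ± 14.4 CPM in WT ethanol bone, and at 67.5 ± 2.22 CPM in KO PBS and 152 ± 23.4 CPM in WT PBS bone (SD, n = 3 each), a log2 change of -1.17 in KO averaged over both gavages (edgeR adjusted p = 2.22e-05), and the transcript was still counted in the knockouts. All of the marker lists for bone, blood and vessel cells were detected, with no marker at 0 in every library. Skeletal muscle markers were highest in libraries 8, 9 and 12 (36298 to 41783 CPM summed over 16 genes), against 1441 to 20562 CPM in the other 9 libraries. Some results that rest on those 3 libraries are also given without them, but most changes of single genes in wild type are not.

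Ethanol and PBS bone differed in 9 of the 53 genes when the effect was averaged over both genotypes, against 10.8% of all genes. Receptors were 6 of the 8 members that rose, but they were also 32 of the 53 members. By role, 6 of 32 receptors, 1 of 5 antagonists or decoys and 1 of 15 ligands rose. The decoy receptor Il1r2 and the IL-9 receptor Il9r rose most, the IL-4 receptor chain Il4ra and the shared IL-2 and IL-15 receptor chain Il2rb rose by smaller amounts, and the ligand Il17d fell. Only 4 genes, Il1r2, Il4ra, Il9r and Il17d, were called both in the average and in a single genotype, and their promoters are shown for that reason. Each is the RefSeq window on GRCm38.p6 from 250 bases before to 50 bases after the annotated start, 5′ to 3′ on the gene's strand, with capitals for a STAT dimer site (TTCNNNGAA, searched on both strands; it is its own reverse complement). The windows are chr1:40085843-40086142 on the plus strand for Il1r2, chr11:32200230-32200529 on the minus strand for Il9r, chr7:125552021-125552320 on the plus strand for Il4ra and chr14:57524579-57524878 on the plus strand for Il17d.
Il1r2: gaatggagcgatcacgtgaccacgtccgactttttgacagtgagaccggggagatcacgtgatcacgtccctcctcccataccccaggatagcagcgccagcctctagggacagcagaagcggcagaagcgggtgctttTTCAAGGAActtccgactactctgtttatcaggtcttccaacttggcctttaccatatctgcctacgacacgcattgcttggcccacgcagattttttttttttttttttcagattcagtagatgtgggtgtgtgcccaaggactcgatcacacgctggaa
Il9r: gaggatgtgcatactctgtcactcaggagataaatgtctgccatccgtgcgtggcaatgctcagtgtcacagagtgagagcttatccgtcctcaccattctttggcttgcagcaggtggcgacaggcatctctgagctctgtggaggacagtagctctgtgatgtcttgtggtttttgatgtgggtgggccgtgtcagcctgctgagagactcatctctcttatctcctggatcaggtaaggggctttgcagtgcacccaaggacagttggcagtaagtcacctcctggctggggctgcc
Il4ra: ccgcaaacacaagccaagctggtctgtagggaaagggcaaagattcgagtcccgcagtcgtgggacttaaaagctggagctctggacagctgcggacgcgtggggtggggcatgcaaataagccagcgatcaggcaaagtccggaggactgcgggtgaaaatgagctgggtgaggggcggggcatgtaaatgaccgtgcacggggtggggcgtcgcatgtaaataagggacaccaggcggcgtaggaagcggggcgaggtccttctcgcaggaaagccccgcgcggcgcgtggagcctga
Il17d: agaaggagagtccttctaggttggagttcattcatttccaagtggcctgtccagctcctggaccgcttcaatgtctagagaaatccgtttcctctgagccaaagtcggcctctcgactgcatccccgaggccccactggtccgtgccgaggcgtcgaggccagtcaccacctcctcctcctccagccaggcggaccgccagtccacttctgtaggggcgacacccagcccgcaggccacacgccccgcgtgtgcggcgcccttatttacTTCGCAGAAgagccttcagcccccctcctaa
A match stood 111 bases before the start in Il1r2 (offset -111, TTCAAGGAA) and 19 bases after it in Il17d (TTCGCAGAA), and the windows of Il9r and Il4ra held none. The same letters occur in 8.30% of all 32851 RefSeq promoter windows of that length, and in a window of 9.55% of 27025 genes. Neither the AP-1 site TGANTCA (7.81% of all windows) nor the glucocorticoid receptor half-site AGAACA (18.97%), each searched on both strands, was in any of the 4. Among the 42 members with a window, 9 held the STAT letters (21.4%), 9 the AP-1 letters (21.4%, against 8.97% of genes) and 10 the AGAACA letters (23.8%, against 21.3% of genes). The RefSeq starts of Il1r2, Il4ra and Il17d used here lie inside the genes as GENCODE M21 draws them, that of Il1r2 furthest.

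Levels were compared between genes as CPM per kilobase of exon, averaged over the 12 libraries. The receptor chains spanned 0.345 to 24.6 CPM per kb (median 3.53), the ligands 0.163 to 18.0 (median 4.88) and the antagonists and decoys 0.450 to 19.01 (median 5.98). Il6st, which encodes gp130, the signalling chain shared by IL-6, IL-11 and related cytokines, was highest at 24.6 CPM per kb, followed by Il17ra, the receptor chain for IL-17A and IL-17F, at 23.1. Il1r2 came next at 19.01, then Il1f9, which encodes the inflammatory ligand IL-36γ, at 18.0, and Il10ra, the ligand-binding chain of the IL-10 receptor, at 15.9. The ranges of these neighbours over the 12 libraries overlapped, and their order within each library was not compared. Il6st ranged from 20.5 to 27.8 CPM per kb, Il17ra from 19.9 to 26.2, Il1f9 from 14.7 to 23.4 and Il10ra from 12.2 to 21.5. Il1r2 covered the widest range, 8.47 to 40.4. At the other end were Il33, the alarmin ligand of Il1rl1, at 0.163 CPM per kb (4 to 19 counts per library), and Il6 at 0.264 CPM per kb (4 to 23 counts).

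Several receptors were measured where their ligand was nearly or fully undetected. Another 29 genes with Il symbols averaged at most 9.5 counts and were outside the rule, and 10 of them had 0 counts in every library, including Il9, the ligand of Il9r, along with Il3, Il20, Il21 and Il31. A count of 0 allows up to 0.104 to 0.150 CPM per library (3 counts, counting error only). Il17a, a ligand of the abundant Il17ra, had 2 counts over all 12 libraries, Il13 had 10, Il5 had 48 and Il10 had 114. Il31ra, which binds IL-31, was nonetheless counted at 44 to 103 per library and Il3ra at 354 to 616.

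**Figure D1:**
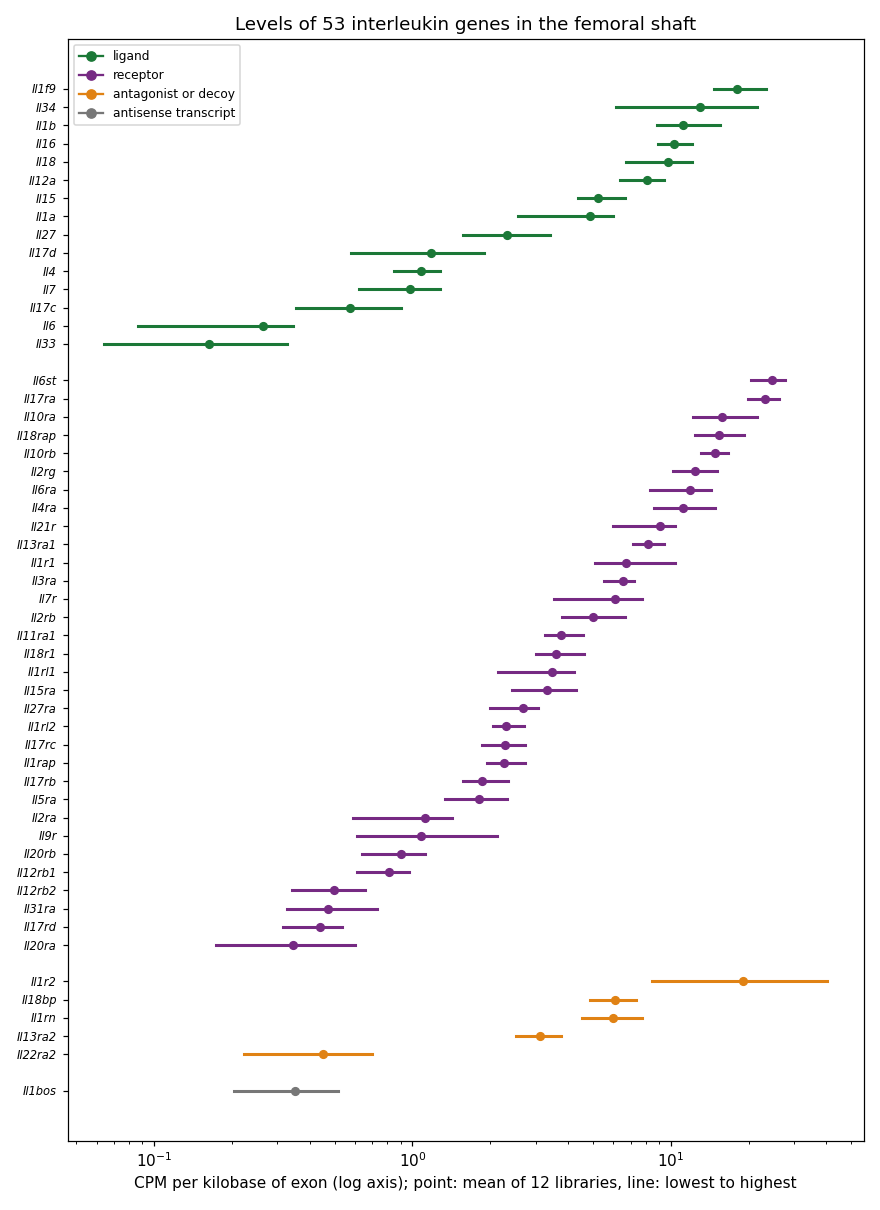
Level of each of the 53 genes, as CPM per kilobase of exon on a log axis, averaged over the 12 libraries, with the range over libraries as a line. Il6st (24.6) and Il17ra (23.1) lie highest and Il33 (0.163) lowest, and Il1r2 covers 8.47 to 40.4 CPM per kb.

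The ethanol effect was tested with edgeR's quasi-likelihood test on the deposited counts, with Benjamini-Hochberg adjustment over all 18161 genes tested, and calls needed an adjusted p below 0.05. In the effect averaged over both genotypes, 8 of the 53 genes rose (15.1%) and 1 fell (1.89%), against 5.02% and 5.81% of all genes, and 10.8% in either direction. The median log2 change was 0.09 over the members and -0.0088 over all genes tested. By role, 6 of 32 receptors rose and 25 of 32 lay above 0 (median 0.11), 1 of 15 ligands rose and 1 fell with 11 of 15 below 0 (median -0.13), and 1 of 5 antagonists or decoys rose (median 0.13). By family, 4 of 13 members of the common gamma chain group rose, as did 2 of 14 of the IL-1 family, 1 of 5 of the IL-10 family and 1 of 2 other cytokines, while 1 of 6 of the IL-17 family fell. The count of 9 was 4 without library 1, 2 or 3 and 5 without library 6. None of 5 IL-12, 5 IL-6 and gp130 or 2 common beta chain members passed the test. In these bulk libraries, fewer cells of a type and less RNA per cell cannot be told apart.

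The ligands that passed were Il34 and Il17d. Il34 (chr8:110741829-110805924, minus strand) encodes IL-34, a ligand of the CSF-1 receptor that supports macrophages and osteoclasts. It was at 29.3, 33.6 and 42.4 CPM in KO ethanol, against 22.5, 22.9 and 26.9 CPM in KO PBS libraries, and at 25.2, 28.1 and 21.8 CPM in WT ethanol, against 19.3, 12.0 and 21.0 CPM in WT PBS libraries. Every ethanol library lay above every PBS library of its genotype. The averaged log2 change was 0.53 ± 0.14 (SE; edgeR adjusted p = 0.0365). That call was lost without library 1, 2, 3, 5, 6, 10 or 11 taken singly (log2 0.43 to 0.61, adjusted p 0.0286 to 0.0892 over all single-library omissions).

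Il17d (chr14:57524777-57543166, plus strand), a ligand of the IL-17 family, was at 1.28, 1.30 and 1.35 CPM in KO ethanol, against 1.99, 1.63 and 1.94 CPM in KO PBS libraries. In wild type it was at 1.06, 0.845 and 0.737 CPM with ethanol, against 2.09, 1.34 and 2.41 CPM with PBS. All 6 ethanol libraries were below the PBS libraries of their genotype, at 14 to 55 counts per library. The averaged log2 change was -0.82 ± 0.16 (edgeR adjusted p = 0.00997), and Il17d also fell in wild type alone (-1.14 ± 0.24, adjusted p = 0.0449). In wild type the call was lost in 15 of its 21 alternatives, including every single-library omission except that of library 8 (log2 -1.33 to -0.96, adjusted p 0.0484 to 0.127), and in KO the change was -0.50 (adjusted p = 0.288).

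No other ligand passed. Il18, an inflammasome-processed ligand that drives interferon-γ production, was at 9.70, 9.29 and 11.6 CPM in KO ethanol, against 12.4, 11.9 and 12.4 CPM in KO PBS libraries, and at 8.07, 8.83 and 6.90 CPM in WT ethanol, against 10.9, 8.90 and 9.26 CPM in WT PBS libraries. The groups did not overlap in either genotype, and the averaged log2 change was -0.28 (edgeR adjusted p = 0.0655); it was called by DESeq2, with the muscle covariate and without library 6 (-0.33, adjusted p = 0.0493). Il1b, the main secreted IL-1 agonist, had an averaged change of -0.27 (adjusted p = 0.123; called at -0.35 without library 9, 0.0286), Il1a -0.20 (0.543) and Il1f9 -0.09 (0.647). Il6, at 4 to 23 counts a library, had a change of -0.22 with an SE of 0.24. The remaining ligands lay between -0.26 and 0.21.

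The receptor Il9r changed most among the signalling receptors. Il9r (chr11:32187541-32200279, minus strand) encodes the IL-9-binding chain, which pairs with the common gamma chain and is known on mast cells and lymphoid cells. It was at 6.21, 7.27 and 7.74 CPM in KO ethanol, against 3.40, 4.44 and 3.84 CPM in KO PBS libraries, and at 10.6, 5.87 and 5.27 CPM in WT ethanol, against 3.54, 3.03 and 3.15 CPM in WT PBS libraries. Ethanol libraries were all higher in both genotypes, with library 10 highest of all. Il9r rose by 1.01 ± 0.17 on the log2 scale in the average (2.01-fold; edgeR adjusted p = 0.00417), and by 1.16 ± 0.24 in wild type (adjusted p = 0.0419). The wild-type call was lost without any one library other than 6 or 12 (log2 0.78 to 1.34, adjusted p 0.0361 to 0.116), the smallest change being 0.78 without library 10. In KO the change was 0.86 ± 0.23 (adjusted p = 0.0819), which passed in 7 of 22 alternatives, DESeq2 and the omission of library 10 or 12 among them (adjusted p 0.00941 to 0.253).

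Il4ra (chr7:125552120-125579474, plus strand), the chain that binds IL-4 and forms receptors for IL-4 and IL-13, was at 70.8, 74.2 and 89.3 CPM in KO ethanol, against 54.3, 51.6 and 57.2 CPM in KO PBS libraries. In wild type it was at 70.2, 68.9 and 74.7 CPM with ethanol, against 63.7, 69.8 and 62.0 CPM with PBS. The KO groups were separate and the WT groups overlapped. Il4ra rose by 0.33 ± 0.061 in the average (edgeR adjusted p = 0.00760) and by 0.52 ± 0.086 in KO (adjusted p = 0.0147), and was 0.13 higher in wild type (adjusted p = 0.508). The KO call was lost without library 1, 2 or 3 (adjusted p 0.0126 to 0.0872 over all single-library omissions). An antisense gene, Gm44876, overlaps 9.51% of the exon bases of Il4ra.

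Il2rb (chr15:78479256-78495271, minus strand), the signalling chain shared by IL-2 and IL-15 and typical of NK and T cells, was at 21.9, 22.7 and 27.1 CPM in KO ethanol, against 20.8, 21.4 and 19.8 CPM in KO PBS libraries. In wild type it was at 28.4, 24.0 and 19.9 CPM with ethanol, against 17.7, 16.2 and 17.7 CPM with PBS. Ethanol libraries were higher than PBS libraries in both genotypes, narrowly in KO. The averaged log2 change was 0.35 ± 0.086 (edgeR adjusted p = 0.0248). It lost its call without library 1, 2, 3 or 6 (0.28 to 0.41, adjusted p 0.00646 to 0.0690). In wild type the change was 0.49 (adjusted p = 0.0791), which passed in 4 of 22 alternatives, DESeq2 and the omission of library 12 among them (adjusted p 0.0106 to 0.317).

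Il15ra (chr2:11705290-11734317, plus strand), which binds IL-15 and presents it to cells carrying Il2rb, was at 15.4, 18.3 and 19.1 CPM in KO ethanol, against 10.8, 12.2 and 11.6 CPM in KO PBS libraries. In wild type it was at 13.1, 14.3 and 19.2 CPM with ethanol, against 13.1, 15.8 and 14.96 CPM with PBS. The KO groups were separate and the WT groups overlapped, with log2 changes of 0.60 in KO (edgeR adjusted p = 0.0529) and 0.09 in wild type (0.817). In KO it passed in 10 of 22 alternatives, DESeq2, limma-voom and the omission of library 10 or 12 among them (adjusted p 0.00492 to 0.191 over the 22). The averaged rise of 0.35 ± 0.099 (adjusted p = 0.0459) was lost without any one library other than 4 or 10 (0.26 to 0.40, adjusted p 0.0296 to 0.107).

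Il10ra (chr9:45253837-45269149, minus strand) was at 62.6, 65.8 and 62.5 CPM in KO ethanol, against 54.9, 51.6 and 48.8 CPM in KO PBS libraries, and at 75.2, 54.7 and 49.0 CPM in WT ethanol, against 50.8, 46.9 and 42.7 CPM in WT PBS libraries. The KO groups were separate and the WT groups overlapped. The averaged rise was 0.32 ± 0.092 (edgeR adjusted p = 0.0459), lost without any one library other than 7, 10 or 12 (0.22 to 0.38, adjusted p 0.0121 to 0.113). Il1rl2 (chr1:40324610-40367562, plus strand), the receptor for the IL-36 ligands, was at 16.1, 16.5 and 18.4 CPM in KO ethanol, against 14.8, 14.3 and 15.5 CPM in KO PBS libraries, and at 16.4, 15.3 and 17.7 CPM in WT ethanol, against 13.9, 14.97 and 13.9 CPM in WT PBS libraries. Both genotypes were separate, and the rise was the smallest of the 9, at 0.20 ± 0.059 (adjusted p = 0.0498). It was lost without any one library other than 8 or 11 (0.17 to 0.23, adjusted p 0.0456 to 0.128).

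Among the receptors that did not pass, Il6ra, the IL-6-binding chain, and Il12rb1, a chain of the IL-12 and IL-23 receptors, were higher in every ethanol library within each genotype, with averaged changes of 0.29 (edgeR adjusted p = 0.0756) and 0.31 (0.0701). DESeq2 called Il6ra, and Il12rb1 was called without library 8 (0.38, adjusted p = 0.0364). Il10rb, the signalling chain of the IL-10 receptor, was called only without library 7 (0.15, adjusted p = 0.0379, against 0.11 and 0.151 with all libraries). Over all roles, 7 of 53 members (13.2%) were higher without overlap in both genotypes and 2 (3.77%) lower, against 4.16% and 5.46% of all genes and 9.62% in either direction. Il1r1, the signalling receptor for IL-1, was at 52.6, 45.2 and 65.9 CPM in KO ethanol, against 38.3, 38.0 and 41.8 CPM in KO PBS libraries, and at 36.8, 48.2 and 37.7 CPM in WT ethanol, against 40.9, 32.3 and 36.5 CPM in WT PBS libraries. The KO groups were separate and the WT groups overlapped, and the averaged change was 0.32 (adjusted p = 0.0705); DESeq2 called it, as did edgeR without library 5 (0.38, adjusted p = 0.0369). The abundant chains had small changes, 0.13 for Il6st (adjusted p = 0.196) and 0.09 for Il17ra (0.388). Il6st ranged from 290 to 296 CPM in KO ethanol, 245 to 278 in KO PBS, 257 to 308 in WT ethanol and 228 to 271 in WT PBS libraries, and Il17ra from 190 to 205, 180 to 190, 200 to 227 and 172 to 216 CPM in the same groups. Il20ra, a chain of the IL-20 receptors, had the largest change among those not called, 0.64 with an SE of 0.29, from 10 to 40 counts a library.

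The decoy receptor Il1r2 (chr1:40074079-40125231, plus strand) showed the largest change of the 53 genes. It binds IL-1 without signalling and is abundant in neutrophils. It was at 39.8, 54.1 and 77.0 CPM in KO ethanol, against 16.2, 17.8 and 17.2 CPM in KO PBS libraries, and at 37.3, 37.9 and 68.9 CPM in WT ethanol, against 19.2, 28.7 and 20.9 CPM in WT PBS libraries. Every ethanol library exceeded every PBS library, across genotypes as well. Il1r2 rose by 1.40 ± 0.21 in the average (2.65-fold; edgeR adjusted p = 0.00463) and by 1.74 ± 0.30 in KO (adjusted p = 0.0243), and in wild type it was higher by 1.07 ± 0.30 (adjusted p = 0.121). The KO call was lost without library 1, 2, 3, 5 or 6 (1.46 to 1.94, adjusted p 0.00963 to 0.119), and the averaged call was kept in all 21 alternatives. The other antagonists did not pass: Il1rn, which encodes the IL-1 receptor antagonist, had an averaged change of -0.18 (adjusted p = 0.151; called only with the muscle covariate, at -0.20), Il18bp, the IL-18-binding protein, 0.15 (0.188), Il13ra2, the IL-13 decoy, 0.08 (0.714) and Il22ra2, the soluble IL-22-binding protein, 0.13 (0.780).

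**Figure D2:**
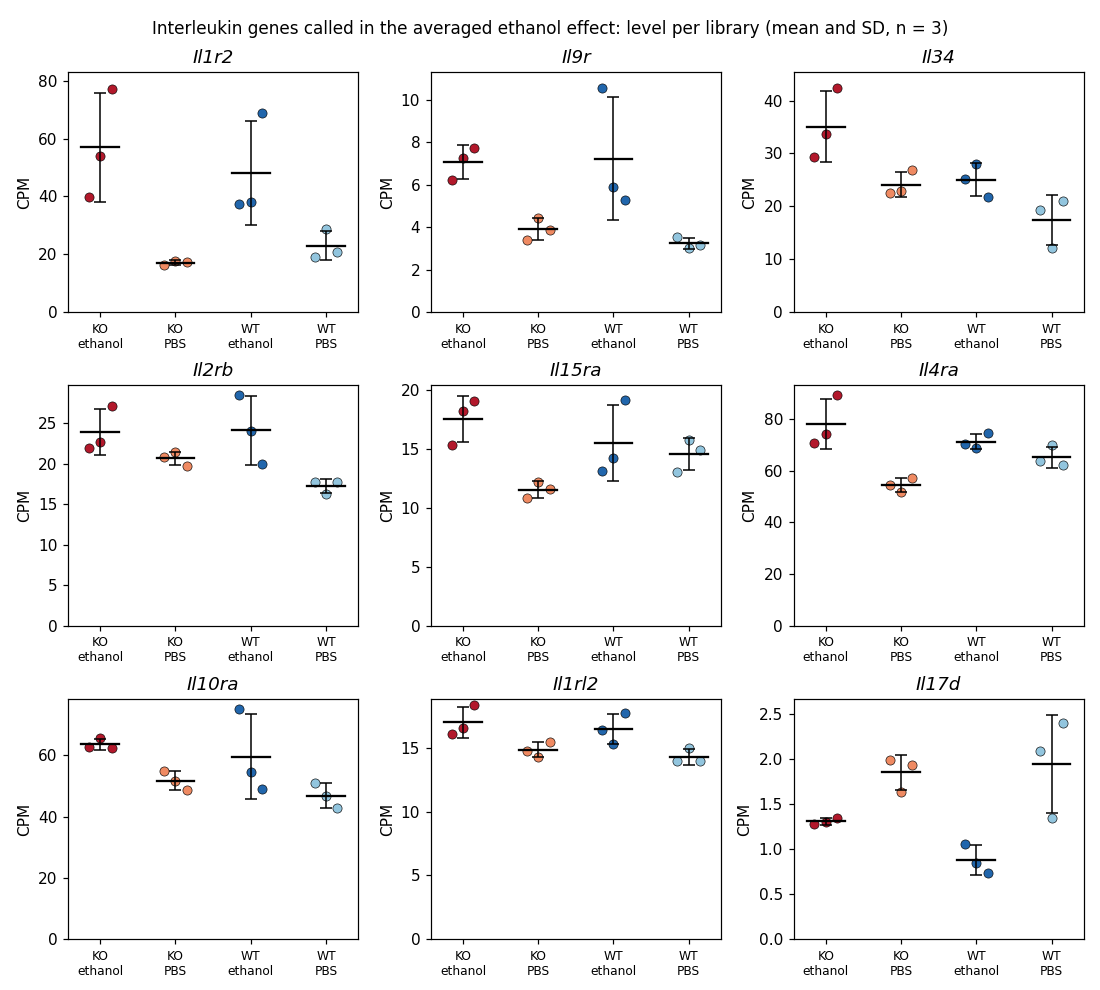
CPM of the 9 genes called in the averaged ethanol effect, 1 point per library, in KO ethanol, KO PBS, WT ethanol and WT PBS bone, with lines for the mean and SD of 3 libraries. Il1r2 lies between 37.3 and 77.0 in all ethanol libraries and at 28.7 or less in PBS libraries, and Il17d is lower with ethanol in both genotypes.

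Within single genotypes, 2 of 53 members (3.77%) were called in each, Il4ra and Il1r2 in KO, both higher, against 1.87% of all genes (0.964% higher and 0.903% lower), and Il9r higher and Il17d lower in wild type, against 1.26% (0.556% higher and 0.705% lower). At an unadjusted p under 0.05 there were 13 of 53 members in KO and 11 in wild type, against 2980 and 2907 of all 18161 genes tested. The count in KO was 5 by DESeq2, 3 by limma-voom and 2 by limma-trend, and in wild type 4, 0 and 2 in the same order. The shares of all genes above are edgeR's with all libraries. Those for other tools or fewer libraries are not given here, so these counts have no share to stand beside. It moved to 0 in KO without library 1, 2 or 3, to 1 without 5 or 6 and to 4 without 10 or 12. In wild type it moved to 0 without library 1, 2, 3, 4, 5, 7, 9, 10 or 11 and to 1 without 6 or 8. Without the muscle-rich libraries 8, 9 and 12 together, 5 members were called in KO and 0 in wild type, where 2 ethanol libraries and 1 PBS library then remained. Without overlap between ethanol and PBS libraries, 16 members were higher (30.2%, against 16.3% of all genes) and 7 lower (13.2%, against 16.0%) in KO, where 32.3% of all genes did not overlap in either direction. In wild type 8 were higher (15.1%, against 7.32%) and 3 lower (5.66%, against 9.06%), where 16.4% of all genes did not overlap. A call in 1 genotype alone does not show a difference between them, and the difference itself was tested as an interaction.

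**Figure D3:**
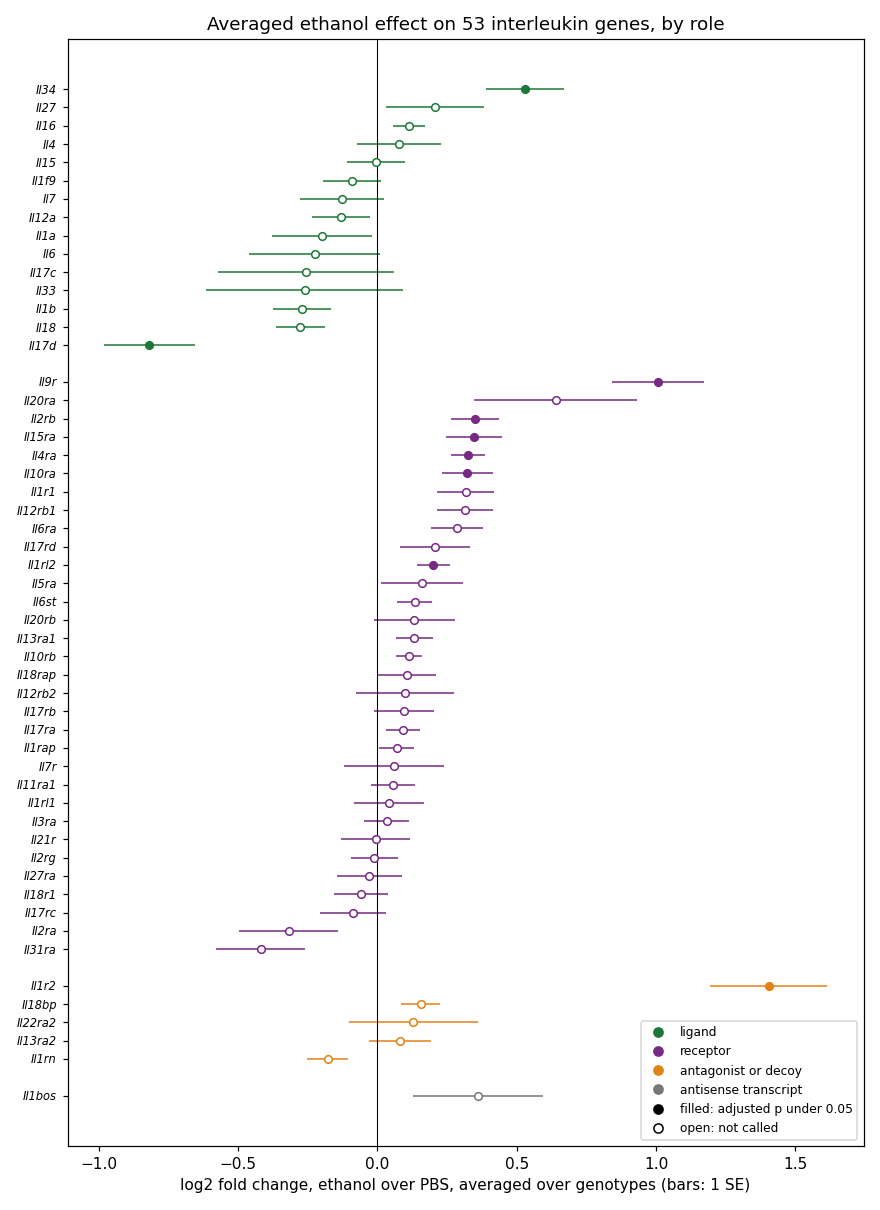
Averaged ethanol effect (log2, ethanol over PBS) of all 53 genes with its standard error, ordered within role, called genes marked. Receptors lie mostly above 0 (25 of 32) and ligands mostly below (11 of 15), with Il1r2 at 1.40 and Il17d at -0.82 at the ends.

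Some markers of other cells also passed the test in the averaged ethanol effect, where 5.02% of all genes rose and 5.81% fell. None of 12 B cell, 12 erythroid or 8 platelet and megakaryocyte markers passed. Of 14 neutrophil markers, 2 rose with ethanol (Mmp8 by 0.42, edgeR adjusted p = 0.0315, and Cxcr2 by 0.35, adjusted p = 0.0330) and none was at 0. Their sum was 27067 to 30357 CPM in KO ethanol and 26718 to 27502 in KO PBS libraries, and 27203 to 42690 in WT ethanol and 24911 to 43939 in WT PBS libraries. Library 12 held the highest sum of the WT ethanol group and also its highest Il1r2, library 8 was highest in both within WT PBS, and library 6 within KO ethanol. Within KO PBS, library 1 had the highest sum and the lowest Il1r2. Of 12 monocyte and macrophage markers, 1 rose (Cd14, by 1.16, adjusted p = 0.000347), with sums of 1587 to 1747 CPM in KO ethanol, 1567 to 1607 in KO PBS, 1537 to 1725 in WT ethanol and 1372 to 1598 in WT PBS libraries. The part of these cells in the rise of Il1r2 was not tested.

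Of 12 T cell and NK markers, 2 rose (Klrb1c by 0.45, edgeR adjusted p = 0.00754, and Gzma by 0.90, adjusted p = 0.00193), against 5.02% of all genes. In the average 7 lay above 0 and 5 below (median 0.06). In KO 5 lay above and 7 below (median -0.05), and in wild type 10 above and 2 below (median 0.16). The sum was 115 to 126 CPM in KO ethanol, 115 to 122 in KO PBS, 106 to 143 in WT ethanol and 112 to 127 in WT PBS libraries. It was highest in library 10, which also held the highest Il9r, Il2rb and Il10ra of the 12. Library 10 was also highest of the 12 in the B cell sum (823 CPM) and the osteoclast sum (4965 CPM). It was lowest in the skeletal muscle sum (1441 CPM). Of 8 mast cell, basophil and eosinophil markers tested, none rose and 2 fell (Mcpt8 by 0.39, adjusted p = 0.0497, and Prg2 by 0.33, adjusted p = 0.0334), and Mcpt4, Tpsb2 and Cma1 averaged under 10 counts. Of 12 osteoblast markers, 7 fell and all lay below 0 (median -0.70), with sums of 12793 to 26944 CPM in KO ethanol, 36697 to 44251 in KO PBS, 13812 to 26099 in WT ethanol and 26200 to 32982 in WT PBS libraries. Of 10 osteocyte markers, 2 fell (Phex by 0.70, adjusted p = 0.0116, and Ptprz1 by 0.80, adjusted p = 0.00457), with a median of -0.33. Of 12 osteoclast markers, 2 rose (Calcr by 1.97, adjusted p = 0.000507, and Ocstamp by 0.74, adjusted p = 0.0294) and 11 lay above 0, with a median of 0.24 in the average, 0.08 in KO and 0.46 in wild type. The osteoclast sum was 3509 to 4138 CPM in KO ethanol and 3592 to 3870 in KO PBS libraries, and 3585 to 4965 in WT ethanol and 3374 to 3493 in WT PBS libraries. The part of these shifts in the changes of Il9r, Il2rb, Il10ra, Il34 or Il17d was not tested. Without the muscle-rich libraries 8, 9 and 12, 9 members were called but not the same 9: Il10ra (0.33, edgeR adjusted p = 0.0609) and Il1rl2 (0.20, 0.118) were lost, and Il1f9 (-0.24, 0.0288) and Il31ra (-0.71, 0.0161) were gained, which makes 6 higher and 3 lower.

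**Figure D4:**
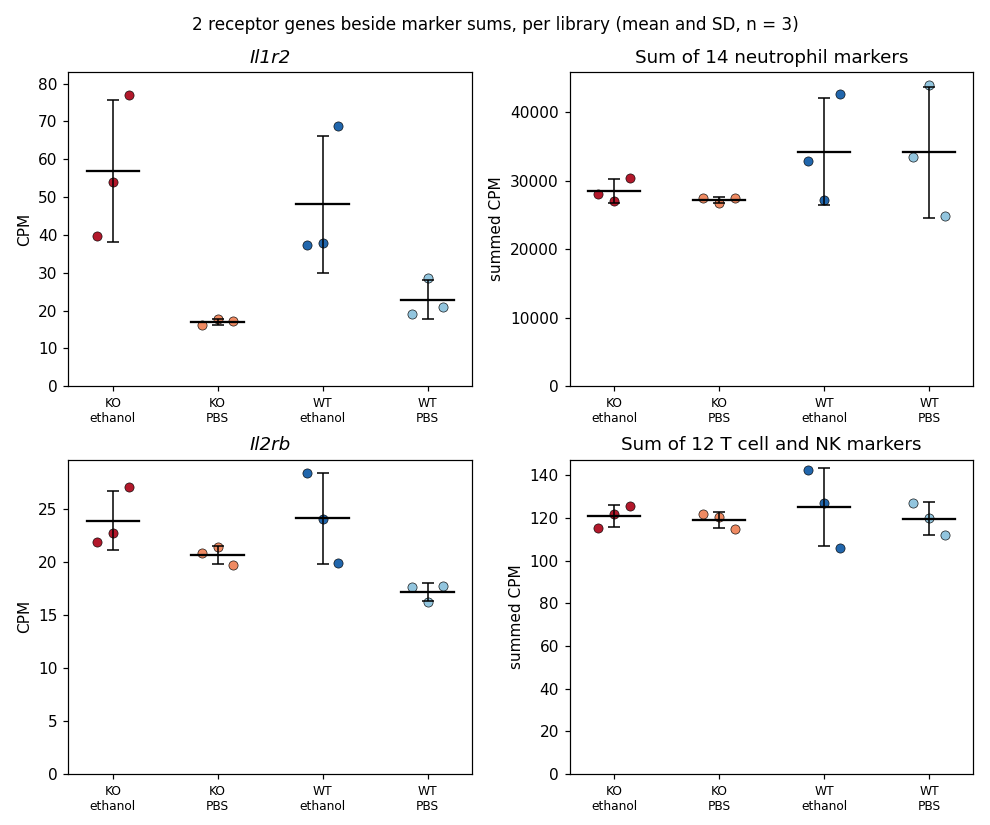
CPM of Il1r2 beside the summed CPM of 14 neutrophil markers, and of Il2rb beside that of 12 T cell and NK markers, 1 point per library in KO ethanol, KO PBS, WT ethanol and WT PBS bone (lines: mean and SD of 3 libraries). Both marker sums overlap between ethanol and PBS libraries in each genotype. Il1r2 and Il2rb do not overlap. Single markers within the sums rose in the averaged ethanol effect (Mmp8 and Cxcr2, Klrb1c and Gzma). The part of these cells in Il1r2 or Il2rb was not tested.

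Some of the genes that carry or restrain signals from these receptors also changed with ethanol. Of 36 kinases, STATs, adaptors and inhibitors tested, 8 passed the test in the averaged ethanol effect, 7 of them higher. Over all genes, 10.8% passed and 5.02% rose. The median log2 change was 0.06 in the list, against -0.0088 over all genes. The feedback inhibitors Cish and Socs3, which restrain STAT signalling, rose by 0.48 each (edgeR adjusted p = 0.0443 and 0.0104). Socs3 was at 34.2, 33.0 and 38.3 CPM in KO ethanol, against 23.3, 19.3 and 22.1 CPM in KO PBS libraries, and at 24.3, 34.8 and 27.5 CPM in WT ethanol, against 26.0, 20.8 and 26.1 CPM in WT PBS libraries, so the groups overlapped in wild type only. Irs2, an adaptor of the IL-4 and insulin receptors, rose by 0.42 (adjusted p = 0.00136) without overlap in either genotype. Stat4, which acts below the IL-12 receptor, rose by 0.40 (0.0107), and Sigirr, an inhibitory IL-1 receptor relative, by 0.29 (0.0315). This count of 8 dropped to 4 without library 1, 3 or 6, to 5 without 2, 5, 9, 10, 11 or 12, and to 5 without libraries 8, 9 and 12 together.

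Of 31 related receptors and cytokines with other symbols, 4 rose (5.02% of all genes did) and none fell (5.81%), and the median log2 change was 0.10. The 4 are named after their values were seen: Flt3, a receptor of early blood progenitors, rose by 0.87 (edgeR adjusted p = 0.000507), Osmr, which pairs with gp130, by 0.63 (0.00275), Csf2rb, the common beta chain, by 0.30 (0.0463) and Ifngr1, an interferon-γ receptor chain, by 0.21 (0.0349). Csf1r is the receptor of the IL-34 that rose here, and its averaged change was 0.16 (adjusted p = 0.159).

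The comparison of KO with WT asked whether loss of catalase alters these genes. No member was called by edgeR under ethanol, under PBS or in the average of both, against 0.011% of all genes in each. At an unadjusted p under 0.05 there were 7, 9 and 8 of 53 members in that order, against 1050, 1350 and 2591 of all 18161 genes tested. DESeq2 called 0, 0 and 3 members (Il1rl1, Il1rn and Il34), while limma-voom and limma-trend called 0 in each. The 0.011% is edgeR's share, and the shares of all genes called by the other tools are not given here. Under both gavages, 3 members were higher in KO without overlap (5.66%, against 1.95% of all genes) and 1 lower (1.89%, against 0.485%), where 2.43% of all genes did not overlap in either direction. Under ethanol alone 5 were higher (9.43%, against 7.12%) and 3 lower (5.66%, against 4.04%; 11.2% in either direction), and under PBS alone 8 were higher (15.1%, against 8.98%) and 6 lower (11.3%, against 5.16%; 14.1% in either direction).

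The 3 higher were Il34, Il18 and Il1rl1, the receptor for IL-33. Il1rl1 was at 28.1, 27.2 and 28.3 CPM in KO ethanol, against 24.4, 22.3 and 15.2 CPM in WT ethanol libraries, and at 29.2, 25.2 and 27.7 CPM in KO PBS, against 22.3, 14.8 and 22.3 CPM in WT PBS libraries. The muscle-rich libraries 12 and 8 were lowest. The averaged KO change was 0.45 for Il1rl1, 0.35 for Il18 and 0.48 for Il34 (edgeR adjusted p = 0.328 each). Il1rn was at 25.1, 29.2 and 26.5 CPM in KO ethanol, against 39.4, 33.6 and 32.9 CPM in WT ethanol libraries, and at 31.6, 28.9 and 33.7 CPM in KO PBS, against 42.9, 39.4 and 33.9 CPM in WT PBS libraries. It was lower in every KO library than in the WT libraries of the same gavage, with an averaged change of -0.35 (edgeR adjusted p = 0.328). Without libraries 8, 9 and 12, which leaves 1 WT PBS library, the averaged KO change was 0.27 for Il1rl1, 0.22 for Il18 and -0.45 for Il1rn. Il34 was lowest in library 12 within WT ethanol (21.8 CPM) and in library 8 within WT PBS (12.0 CPM). Its KO change without those libraries is not given here.

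Il1f9 was at 24.3, 25.9 and 24.7 CPM in KO ethanol, against 32.3, 28.9 and 37.0 CPM in WT ethanol libraries, and at 28.7, 26.5 and 28.1 CPM in KO PBS, against 38.5, 37.3 and 24.2 CPM in WT PBS libraries. The groups overlapped under PBS through library 9, and the averaged change was -0.33 (edgeR adjusted p = 0.328). All 14 neutrophil markers lay below 0 in the averaged KO comparison (median -0.27) and none was called. All 16 muscle markers lay below 0 as well (median -1.47). Other lists lay above 0 in KO, again with none called: 12 of 12 erythroid markers (median 0.40), 12 of 12 B cell markers (0.14) and 8 of 8 platelet and megakaryocyte markers (0.25). The part of these lists in the values of Il1rn, Il1f9, Il1rl1, Il18 and Il34 was not tested.

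**Figure D5:**
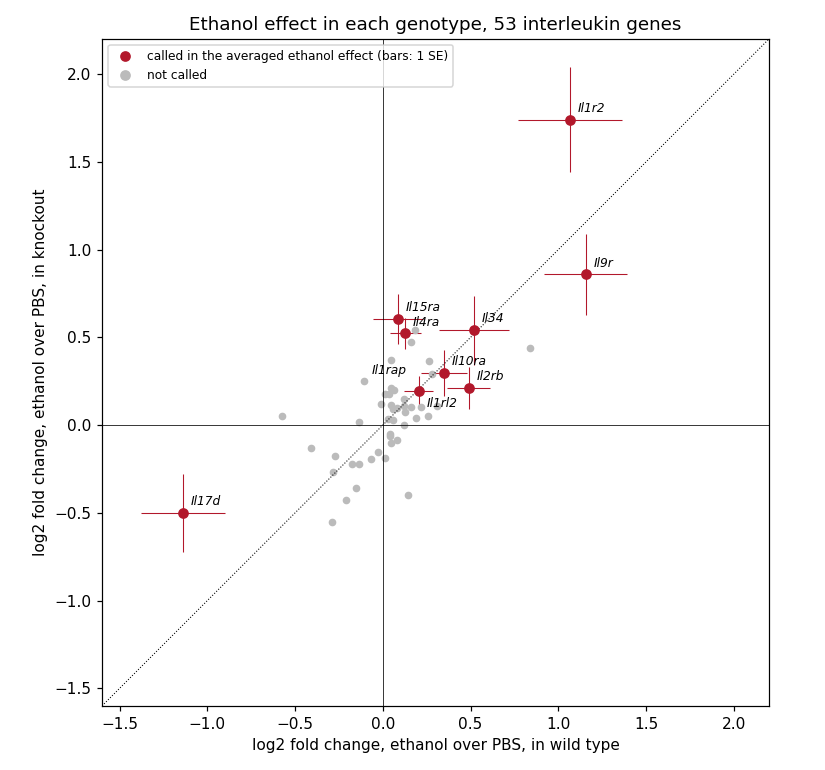
Ethanol effect of each of the 53 genes in KO mice (vertical axis, log2) against that in WT mice (horizontal axis, log2), with SE bars and names for the 9 genes called in the average and a name for Il1rap. Il1r2, Il9r and Il34 lie above 0 and Il17d below 0 in both, and Il4ra lies higher in KO (0.52) than in WT (0.13).

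The interaction term asked whether the ethanol effect differed between KO and WT. No member was called by edgeR (0.0% of all genes), and DESeq2, limma-voom and limma-trend called none. An unadjusted p under 0.05 was found for 3 of 53 members, against 359 of all 18161 genes tested. Those 3 were Il4ra (difference 0.39 ± 0.12 SE, KO minus WT), Il1rap (0.36 ± 0.13) and Il15ra (0.52 ± 0.20), each with an edgeR adjusted p of 0.999985. All 9 genes called in the average had the same sign in both genotypes. They were picked on the average of both effects, which favours equal signs, so this does not bear on the interaction. The share among all called genes was not counted. Il1rap, the accessory chain that IL-1, IL-33 and IL-36 receptors need for signalling, was at 24.8, 28.3 and 31.0 CPM in KO ethanol, against 24.3, 24.5 and 22.0 CPM in KO PBS libraries. In wild type it was at 24.8, 25.1 and 24.4 CPM with ethanol, against 25.7, 28.9 and 25.5 CPM with PBS. Its ethanol libraries were thus all above PBS in KO and all below PBS in wild type, with changes of 0.25 (edgeR adjusted p = 0.177) and -0.11 (0.597). In Il4ra, Il15ra, Il1rap and Il1r2 the KO PBS libraries were also all below the WT PBS libraries, by -0.26, -0.34, -0.18 and -0.43 (adjusted p 0.605, 0.605, 0.605 and 0.649), and these values share the KO PBS and WT PBS libraries with the interaction.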

How the data were processed

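Femoral shaft RNA was sequenced from 12 pooled libraries in 4 groups. The authors deposited a table of raw counts for 49315 genes, per the file headers. Tools named in the submitters' processing notes are STAR 2.5.2b, featureCounts of Subread 1.5.2 and Trimmomatic 0.36, with the build GRCm38. How strand and multi-mapping reads were handled is not given, so values of the 19 members that share exon bases with another gene are uncertain (Il12rb2 shares 40.0% with Serbp1, Il2rg 30.5% with Gm20489), as is Il11ra1, which has near-identical copies. The authors' normalized table holds a signal, the count divided by 1 constant per library (relative spread at most 9.88e-10), for 17408 genes with a mean count above 10, and it set the members and served in 1 alternative.

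Counts were tested with edgeR 4.0.16 in R 4.3.3 (TMM factors, filterByExpr with minimum count 10 and minimum total 15, 1 coefficient per group, robust quasi-likelihood, 8 residual degrees of freedom). Of the genes, 18161 were tested, all 53 members among them, and Benjamini-Hochberg adjustment ran over all of them. CPM used TMM-scaled totals, and lengths were GENCODE M21 union exons. The script was tested on simulated counts. The alternatives were DESeq2 1.42.0, limma 3.58.1 (voom, and trend on log2(signal + 1)), scaling by RLE or upper quartile, a filter of 5 CPM in 3 libraries or none, a fit of the compared groups only, a muscle covariate, each library left out, and, chosen after seeing the data, libraries 8, 9 and 12 left out.

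Values per library are given for members called in any comparison, those with the smallest p in each (4 for the ethanol effects, 3 otherwise) and the 5 highest per kilobase, 17 in all. The members, lists and tests were chosen with earlier results of these data known. Of the 8 signalling genes called for ethanol, 1 is not reported here. Nothing beyond pooling from 2 mice is given on how libraries were separated.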

Additional observations from a re-analysis of the deposited data

Results flagged for a closer look

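The ethanol effect on Il1rap was flagged, by a rule applied to all 53 members, because its libraries moved in opposite ways in the 2 genotypes. Of all genes, 16.3% were higher without overlap in KO and 9.06% were lower without overlap in wild type. The share of all genes with opposite separation was not counted. All 3 KO ethanol libraries lay above the KO PBS libraries, and all 3 WT ethanol libraries lay below the WT PBS libraries. The difference between the effects, KO minus WT, was 0.36 on the log2 scale, and the interaction test did not pass (edgeR adjusted p = 0.999985, and 0.865 to 0.999999 over the alternatives). Groups of 3 libraries are too small for the check for single outlying samples.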

How the results depend on the processing

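Il1r2, Il9r and Il4ra kept the averaged ethanol call in all 21 alternatives and Il17d in all 20 of its own, while Il2rb, Il34, Il10ra, Il15ra and Il1rl2 lost it in 4, 8, 11, 12 and 13. Of 621 recomputed values for 29 gene and comparison pairs, 512 kept their side of the threshold, 85 lost the call, 24 gained it and none changed sign. The count of members called for ethanol in KO, 2, was 5 with DESeq2, 6 in a fit of the 2 groups only, 5 with the muscle covariate, 5 without libraries 8, 9 and 12, and 0 to 4 with 1 library left out. In wild type, also 2, it was 1 with upper-quartile factors, 1 at 5 CPM in 3 libraries, 4 with DESeq2, 0 with limma-voom, 0 in a fit of the 2 groups only, 0 without libraries 8, 9 and 12, and 0 to 2 with 1 library left out. The averaged ethanol count of 9 was 4 to 8 with 1 library left out. The averaged KO count of 0 was 3 with DESeq2. The share of all genes called in each of these other settings is not given here. The signalling partner count of 8 was 5 without libraries 8, 9 and 12 and 4 to 7 with 1 library left out. Leaving out a library makes the sample smaller and also takes out that library's values. The cause of these moves was not tested. No paired analysis was possible because the groups share no replicate numbers. Depth limits the ligands with few counts (Il6, Il33, Il17c, Il17d), and pools hide the spread between mice.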
